A study of Sus scrofa with 18 samples.

Results

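The genes described here are 10 genes of calcium entry into smooth muscle: 4 pore subunits of voltage-gated calcium channels (*CACNA1C*, *CACNA1D*, *CACNA1G* and *CACNA1H*), 3 auxiliary subunits (*CACNB2*, *CACNB3* and *CACNA2D1*), the store-operated pair *STIM1* and *ORAI1*, and the receptor-operated channel gene *TRPC6*. They were chosen by name, and all 10 were placed among the 19550 protein-coding RefSeq genes on the named chromosomes of the Sscrofa11.1 assembly. H3K4me3 and H3K27ac had been profiled by CUT&Tag in myometrium, the muscle of the uterus, of Yorkshire gilts. The groups were circular muscle on day 15 of pregnancy (GD15M_CM), longitudinal muscle on day 15 of pregnancy (GD15M_LM) and circular muscle on day 15 of the oestrous cycle (CD15M_CM), all from the mesometrial side of the uterus. Each group had 2 gilts per mark and 2 IgG controls, 18 libraries in all. No allele or treatment was given, and tissue pieces rather than sorted cells were used.

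The reads of both gilts were pooled by the authors before peaks were called, so each group and mark is 1 peak list. No spread between gilts can be had from these lists, no test between groups was possible, and every difference below is a description of pooled lists. The layer of pregnant muscle was compared as GD15M_LM against GD15M_CM, and the state of the animal as GD15M_CM against CD15M_CM. These comparisons share GD15M_CM. Longitudinal muscle of cyclic gilts was not profiled for histone marks.

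Contraction of uterine smooth muscle follows a rise in cytosolic calcium. Depolarisation opens voltage-gated channels. Their alpha-1 subunit forms the pore, the beta subunit brings the pore to the membrane and tunes its gating, and the alpha-2/delta subunit raises the number of channels at the surface. L-type channels carry the main calcium current of the uterine action potential, and T-type channels open at more negative voltages. When the store in the sarcoplasmic reticulum empties, STIM1 senses it and opens ORAI1 in the plasma membrane, and TRPC6 is a cation channel opened by diacylglycerol downstream of phospholipase C. Of the marks, H3K4me3 is found at active promoters, and H3K27ac is found both there and at active enhancers.

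A peak's fold enrichment is the MACS2 ratio of the mark to its IgG control. Because the lists differ in scale, each peak was also given a percentile, its rank by that ratio among the peaks of the same list, with 0 where no peak was listed. For each gene the leading region is the stretch, joined over the 3 lists, that holds its highest-ranked H3K4me3 peak from 3 kb before to 3 kb after the gene. It was chosen on H3K4me3, and H3K27ac was then read at the same place. The gene table has no strand, so ends are called lower and upper by coordinate.

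At the leading region, H3K4me3 of *TRPC6*, *CACNA1C* and *CACNB2* ranked 18.9 to 23.8 points higher in GD15M_LM than in GD15M_CM, and their fold enrichments were 2.17 to 2.88 times as large. H3K27ac at the same places did not go with it in every gene. The difference of GD15M_LM minus GD15M_CM was 35.4 points at *TRPC6*, -4.16 points at *CACNB2* and -46.9 points at *CACNA1C*. With only peaks of fold enrichment at least 5 and −log10 p at least 10, it was 89.0, 9.29 and 0 points. At *CACNA1C* neither pregnant layer had such a peak. Inside the genes, H3K27ac was concentrated in *CACNA1C*, *STIM1*, *CACNA1G* and *CACNA1H*, whereas *CACNA2D1* and *TRPC6* held almost none.

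**Figure D1:**
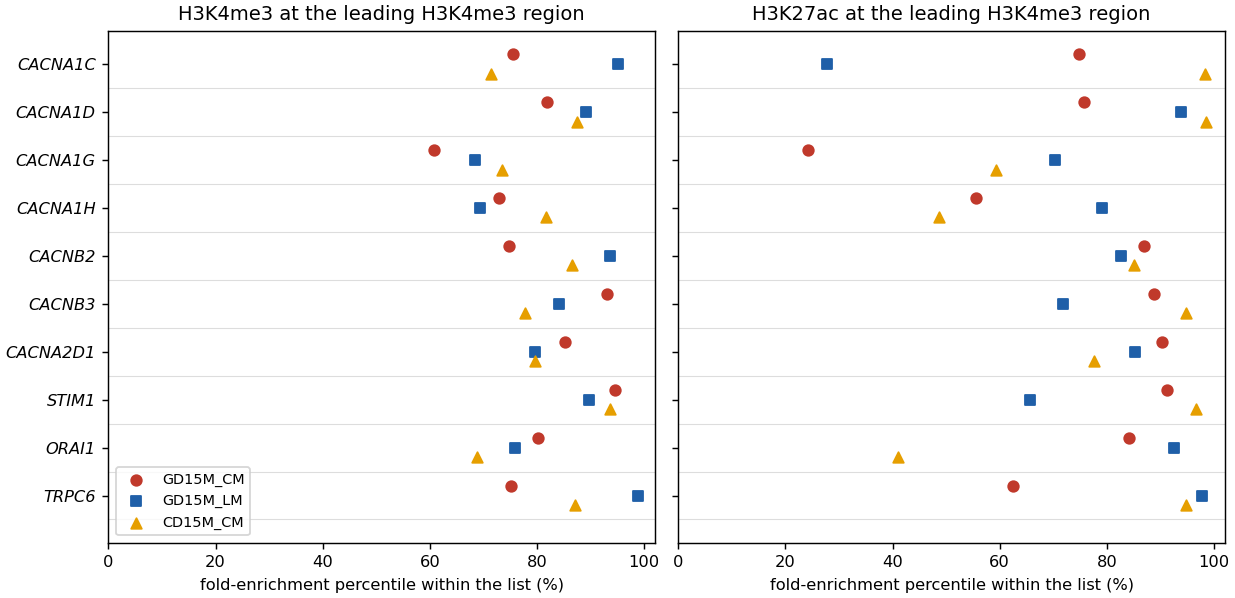
Fold-enrichment percentile within the list (x axis, 0 to 100%) of H3K4me3 (left) and H3K27ac (right) at the leading H3K4me3 region of each gene, with 1 point per pooled list. H3K4me3 lies between 60.9 and 98.9 in all 10 genes and 3 tissues, while H3K27ac runs from 24.2 to 98.6, with GD15M_LM lowest in *CACNA1C* and highest in *TRPC6*.

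The L-type pore genes both carried their leading region at the lower end. *CACNA1C* encodes Cav1.2, the main L-type pore of smooth muscle, and lies on chromosome 5 from 69016954 to 69448428, 431 kb in length, with no other gene of the table within 3 kb. Its leading region spanned 69015815 to 69023405. The H3K4me3 fold enrichment there was 13.5 in GD15M_CM, 30.3 in GD15M_LM and 13.5 in CD15M_CM, which are percentiles 75.5, 95.1 and 71.5. The peak was also longest in GD15M_LM, at 7.59 kb against 4.47 kb in GD15M_CM and 5.74 kb in CD15M_CM. Longitudinal muscle thus stood apart from both circular muscles in this mark.

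H3K27ac over the *CACNA1C* leading region ordered the tissues differently. Its fold enrichment was 4.26 in GD15M_CM, 3.22 in GD15M_LM and 7.30 in CD15M_CM, at percentiles 74.7, 27.8 and 98.3. The H3K27ac peak was 6.14, 8.38 and 8.82 kb long in the same order, so the GD15M_LM peak was long and low. When peaks were ranked by −log10 p, the difference of GD15M_LM minus GD15M_CM was -15.6 points in place of -46.9. Whether the deposited fold enrichment was taken at the summit or averaged over a peak was not stated, and its part in the low value of this long peak was not tested.

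*CACNA1D*, which encodes the L-type pore Cav1.3, lies on chromosome 13 from 35568534 to 35911483, and *CHDH* overlaps its upper end. The leading region at the lower end, from 35566524 to 35570536, had H3K4me3 fold enrichments of 16.3 in GD15M_CM, 25.0 in GD15M_LM and 22.9 in CD15M_CM. These are percentiles 81.9, 89.2 and 87.4, a range of only 7.38 points. By −log10 p the order of both pregnant layers turned, with a difference of GD15M_LM minus GD15M_CM of -4.66 points. H3K27ac at this place had fold enrichments of 4.30, 6.98 and 7.51, at percentiles 75.7, 93.8 and 98.6. In this gene GD15M_CM was therefore the lowest of the 3 tissues in both marks.

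Both T-type pore genes ranked under both L-type genes in H3K4me3 in the pregnant layers, but above *CACNA1C* in CD15M_CM. *CACNA1G* (Cav3.1) lies on chromosome 12 from 26838633 to 26912344 and had no H3K4me3 peak within 3 kb of its ends in any list. Its leading region began 3.06 kb inside the lower end, just beyond this window, and ran from 26841692 to 26846211. H3K4me3 fold enrichments were 7.05 in GD15M_CM, 13.8 in GD15M_LM and 14.7 in CD15M_CM, at percentiles 60.9, 68.4 and 73.5. H3K27ac there was at 2.93, 4.59 and 3.76, percentiles 24.2, 70.3 and 59.2. GD15M_CM was again lowest in both marks, and *SPATA20* lies 121 bp outside the lower end.

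*CACNA1H* (Cav3.2) lies on chromosome 3 from 40637420 to 40694616, with the leading region at the upper end, from 40690597 to 40697112. The protein-coding gene *LOC110255206* lies 1637 bp from *CACNA1H*, on a side not given here. The leading region reaches past the upper end, and whether it overlaps *LOC110255206* was not examined. The marks at this region therefore cannot be assigned to *CACNA1H* alone. The H3K4me3 fold enrichment was 12.4 in GD15M_CM, 14.4 in GD15M_LM and 19.4 in CD15M_CM, at percentiles 72.9, 69.4 and 81.6. H3K27ac was at 3.60, 5.15 and 3.48, percentiles 55.7, 79.2 and 48.6, so the tissue that ranked highest differed between the marks. *CACNA1H* also held many H3K4me3 peaks. It had 3 in GD15M_CM, 16 in GD15M_LM and 8 in CD15M_CM, mostly weak peaks in the upper part of the gene. The strongest of these beside the leading peak were a 1915 bp peak 31.6 kb inside the gene in GD15M_LM, at percentile 52.7, and a 3369 bp peak 40.1 kb inside it in CD15M_CM, at percentile 54.0.

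Among the auxiliary subunits, *CACNB2* held its H3K4me3 far from both ends. The gene runs on chromosome 10 from 44321954 to 44887410, 565 kb, and neither mark had a peak within 3 kb of either end in any list. The leading region lay 98.4 kb from the lower end, from 44420384 to 44424763. H3K4me3 fold enrichments were 13.2 in GD15M_CM, 28.6 in GD15M_LM and 22.3 in CD15M_CM, at percentiles 74.7, 93.6 and 86.5. A second H3K4me3 peak lay about 331 kb from the lower end, with fold enrichments of 5.22, 10.9 and 15.1 and percentiles 53.2, 63.1 and 74.2. Another, 344 kb inside, was listed only for GD15M_LM, at fold enrichment 5.56 and percentile 49.6.

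H3K27ac at the leading *CACNB2* region hardly separated the tissues, with fold enrichments of 5.05, 5.45 and 4.92 and percentiles 86.9, 82.7 and 85.1. This range of 4.16 points was the narrowest of the 10 genes in H3K27ac, but by −log10 p GD15M_CM ranked 15.0 points higher than CD15M_CM. Whether each of the 3 H3K4me3 positions is the start of a transcript could not be read from a table of gene ends. The protein-coding gene *LOC100524391* also overlaps *CACNB2*, and whether it covers any of these positions was not examined. The map of *CACNB2* peaks shows that H3K27ac peaks stood near all 3 positions in all 3 tissues.

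**Figure D2:**
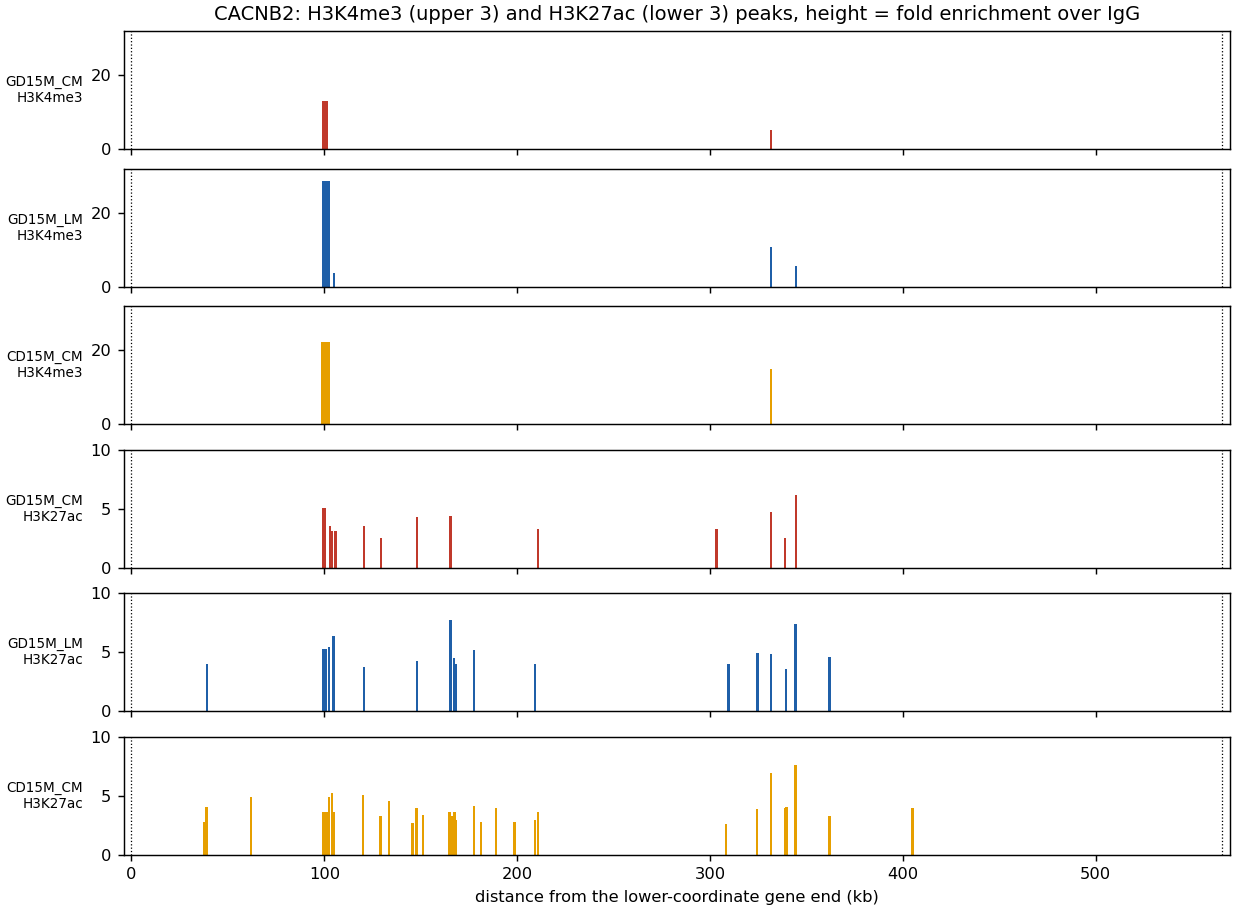
H3K4me3 (upper 3 panels) and H3K27ac (lower 3 panels) peaks of *CACNB2* by distance from the lower gene end in kb (x axis), with bar height as fold enrichment over IgG (y axis), bar width as peak length drawn to scale with a minimum width, and dotted lines at the gene ends. H3K4me3 stands at 98.4 kb and about 331 kb in all 3 tissues, and both gene ends are empty.

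*CACNB3*, the beta-3 subunit, is a short gene on chromosome 5, from 14875524 to 14888224, and *DDX23* lies 727 bp beyond its upper end. Its leading region, 14877004 to 14881560, had H3K4me3 fold enrichments of 22.4 in GD15M_CM, 22.0 in GD15M_LM and 17.1 in CD15M_CM, at percentiles 93.1, 84.1 and 77.7. *CACNB3* was thus the gene in which pregnant circular muscle exceeded cyclic circular muscle most in this mark, by 15.3 points. H3K27ac did not follow, with fold enrichments of 5.26, 4.66 and 6.12 at percentiles 88.8, 71.8 and 94.7.

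*CACNA2D1* encodes alpha-2/delta-1 and lies on chromosome 9 from 97781057 to 98265925, with the nearest gene 64.8 kb away. Its leading region at the lower end, 97780231 to 97783082, had H3K4me3 fold enrichments of 17.9 in GD15M_CM, 19.6 in GD15M_LM and 18.1 in CD15M_CM, at percentiles 85.3, 79.7 and 79.6. H3K27ac there was 5.42, 5.69 and 4.44, at percentiles 90.3, 85.3 and 77.6. The gene differed little between tissues in either mark, with ranges of 5.76 and 12.7 points.

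Of the store-operated genes, *STIM1* carried H3K4me3 at both ends. The gene lies on chromosome 9 from 6066612 to 6270090, and *RRM1* ends or begins 1401 bp from its lower end. The region with the highest rank, 6063391 to 6066828, reaches into *RRM1* and cannot be told apart from that gene's own end. It had H3K4me3 fold enrichments of 23.6 in GD15M_CM, 25.5 in GD15M_LM and 28.1 in CD15M_CM, at percentiles 94.5, 89.8 and 93.7. The upper end has no other gene of the table within 3 kb. Its H3K4me3 peak had fold enrichments of 17.2, 16.9 and 17.4 and percentiles 83.8, 74.5 and 78.4, so the fold enrichments were almost the same in the 3 tissues.

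H3K27ac ordered the tissues differently at the ends of *STIM1*. At the lower end its fold enrichment was 5.55 in GD15M_CM, 4.36 in GD15M_LM and 6.61 in CD15M_CM, at percentiles 91.3, 65.7 and 96.6. At the upper end it was 5.57, 5.37 and 4.22, at percentiles 91.4, 81.8 and 73.2. CD15M_CM was thus highest at one end and lowest at the other. A further H3K4me3 peak 16.3 kb inside the gene reached percentile 59.9 in GD15M_CM.

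*ORAI1*, the pore of store-operated entry, lies on chromosome 14 from 31012212 to 31028008, and a lncRNA gene lies 1407 bp from it, on a side not given here. The leading region at the upper end, 31025181 to 31029127, had H3K4me3 fold enrichments of 15.6 in GD15M_CM, 17.7 in GD15M_LM and 11.8 in CD15M_CM, at percentiles 80.2, 76.0 and 68.9. H3K27ac was at 4.81, 6.72 and 3.29, percentiles 84.1, 92.6 and 41.1. Both marks ranked higher in the pregnant layers than in cyclic circular muscle. The difference of 43.0 points between GD15M_CM and CD15M_CM in H3K27ac was the largest of the 10 genes in that direction. It was 21.4 points when ranked by −log10 p, 60.2 with lists of equal length and 0 with strict peaks (fold enrichment of at least 5, −log10 p of at least 10), which left a peak in neither. Near the lower end of *ORAI1*, however, CD15M_CM had an H3K27ac peak at percentile 74.7, GD15M_CM one at 44.8 and GD15M_LM none.

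*TRPC6* lies on chromosome 9 from 32332768 to 32439184, and a lncRNA gene overlaps its upper end, where the leading region lay, from 32435424 to 32439520. The H3K4me3 fold enrichment was 13.4 in GD15M_CM, 38.5 in GD15M_LM and 22.7 in CD15M_CM, at percentiles 75.1, 98.9 and 87.1. The 38.5 of GD15M_LM was the highest of the 10 genes in any list. H3K27ac was at 3.80, 8.32 and 6.12, percentiles 62.4, 97.8 and 94.7, in the same order of tissues. *TRPC6* was the gene in which both marks ranked at least 10 points higher in GD15M_LM than in GD15M_CM, and both also ranked at least 10 points higher in CD15M_CM than in GD15M_CM. The values cannot be divided between *TRPC6* and the overlapping lncRNA.

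Set beside all genes, the 10 genes did not move as a group. An H3K4me3 peak within 3 kb of an end was found for 8 of 10 genes in each tissue, and 70.6% of all genes had one in GD15M_CM, 71.5% in GD15M_LM and 72.3% in CD15M_CM. An H3K27ac peak was found for 9, 8 and 9 of 10, against 70.1%, 69.1% and 71.9%. At the leading region, H3K4me3 ranked higher in GD15M_LM than in GD15M_CM in 5 of 10 genes (48.1% of all genes), and higher in GD15M_CM than in CD15M_CM in 5 of 10 (41.0%). For H3K27ac these counts were 5 of 10 (44.6%) and 4 of 10 (51.7%). At the gene ends themselves, GD15M_LM ranked higher than GD15M_CM in 3 of 8 genes for H3K4me3 (47.9%) and 4 of 9 for H3K27ac (43.6%), and GD15M_CM higher than CD15M_CM in 5 of 8 (40.8%) and 3 of 9 (50.9%).

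Larger differences in H3K4me3 were counted in the same way. *CACNA1C*, *CACNB2* and *TRPC6* ranked at least 10 points higher in GD15M_LM than in GD15M_CM, 3 of 10 genes where 19.9% of all genes did, and 0 of 10 ranked at least 10 points lower (21.6%). Ranked by −log10 p these differences were 19.6, 20.1 and 22.8 points. At the gene ends, 2 of 8 genes ranked at least 10 points higher in GD15M_LM (19.4%) and 0 of 8 at least 10 points lower (20.7%). With so few genes, these counts lie near the backgrounds. Between the states, *CACNB3* and *ORAI1* ranked at least 10 points higher in GD15M_CM than in CD15M_CM (12.8% of all genes), and *CACNA1G*, *CACNB2* and *TRPC6* at least 10 points lower (24.0%). The median H3K4me3 percentile of the 10 genes was 77.8 in GD15M_CM, 86.7 in GD15M_LM and 80.6 in CD15M_CM, beside 80.3, 79.1 and 81.8 over the 15046 genes with a leading region.

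In H3K27ac the large differences ran in both directions. *CACNA1D*, *CACNA1G*, *CACNA1H* and *TRPC6* ranked at least 10 points higher in GD15M_LM than in GD15M_CM (24.7% of all genes), and *CACNA1C*, *CACNB3* and *STIM1* at least 10 points lower (32.4%). *CACNA2D1* and *ORAI1* ranked at least 10 points higher in GD15M_CM than in CD15M_CM (28.6%), and *CACNA1C*, *CACNA1D*, *CACNA1G* and *TRPC6* at least 10 points lower (26.7%). The median H3K27ac percentile was 79.9, 81.0 and 89.9 in the order GD15M_CM, GD15M_LM and CD15M_CM, beside 84.6, 80.6 and 82.8 over all genes. In these counts and in the medians of both marks, *STIM1* stands with its lower end, which cannot be told apart from *RRM1*. At its upper end the H3K27ac percentiles were 91.4, 81.8 and 73.2 in the same order, so CD15M_CM was lowest there. Ranked by −log10 p, the differences of GD15M_LM minus GD15M_CM were smaller, at 7.02 points for *CACNA1D*, 16.8 for *CACNA1G*, 7.58 for *CACNA1H*, 16.1 for *TRPC6* and -10.4 for *STIM1*, each in the direction reported. With 10 genes, a share such as 4 of 10 lies near these backgrounds.

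**Figure D3:**
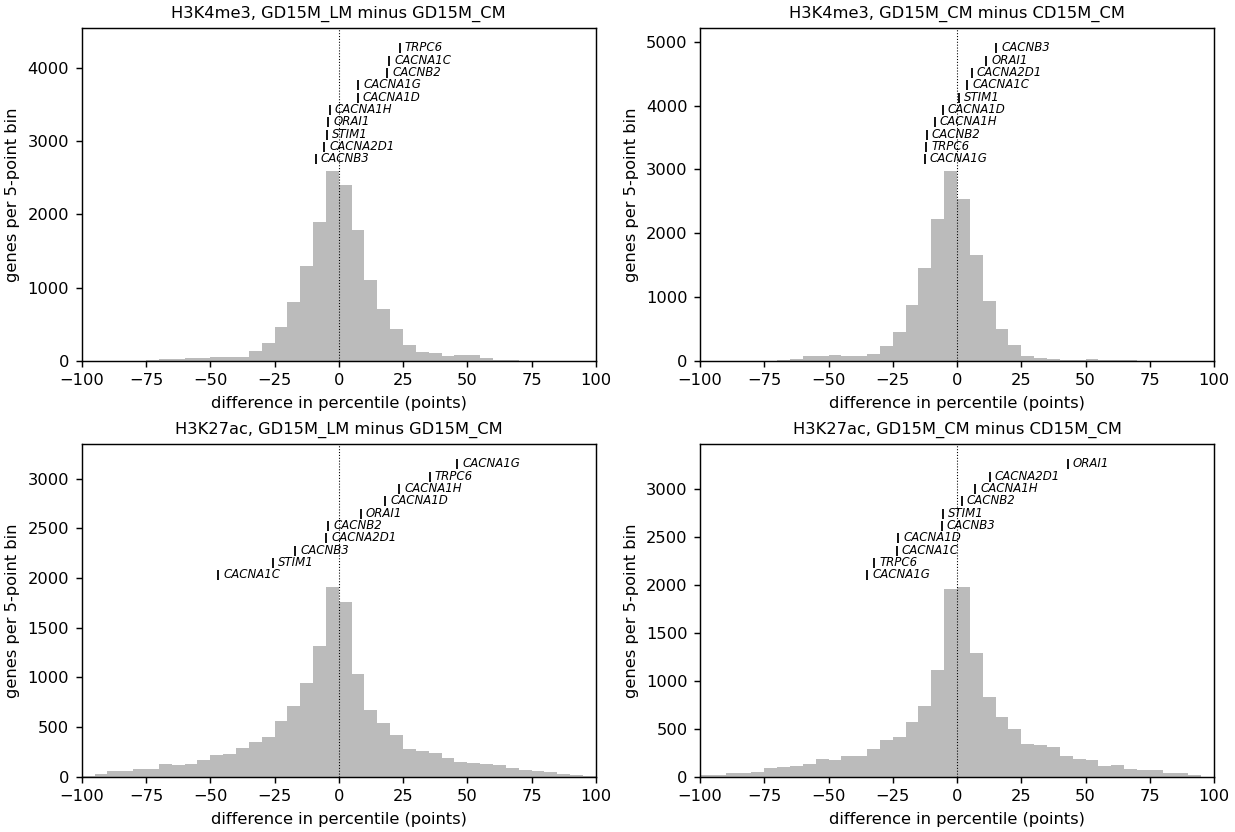
Difference in percentile at the leading region (x axis, points) for H3K4me3 (top) and H3K27ac (bottom), GD15M_LM minus GD15M_CM (left) and GD15M_CM minus CD15M_CM (right). Grey bars count all genes with a leading region in bins of 5 points (y axis), and black ticks, stacked without regard to the y axis, mark the 10 genes. Most ticks lie within the bulk of all genes, with *TRPC6*, *CACNA1C* and *CACNB2* at the right of the top left panel.

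Markers of cell types also differed between the tissues. Those of uterine epithelium ranked lowest in GD15M_LM by median in both marks. At the leading region of *CACNA1C*, GD15M_LM was likewise lowest in H3K27ac, but it was highest in H3K4me3. The 8 smooth muscle markers (*ACTA2*, *MYH11* and others) had both marks in all 3 tissues, with median H3K4me3 percentiles of 80.0 in GD15M_CM, 90.1 in GD15M_LM and 87.3 in CD15M_CM. These medians have the order of tissues seen in *TRPC6* and *CACNB2*, though not every single marker does. In H3K4me3, 7 of 8 markers ranked higher in GD15M_LM than in GD15M_CM (47.9% of all genes). Their H3K27ac medians were 84.4, 84.2 and 91.1, and there 3 of 8 ranked higher in GD15M_LM than in GD15M_CM (43.6%) and 5 of 8 lower. The 6 markers of uterine epithelium had H3K4me3 in all 3 tissues, at medians of 79.4, 59.0 and 81.5 (range 75.1 to 81.6, 12.9 to 59.4 and 71.9 to 87.4). Their H3K27ac medians were 75.5, 13.6 and 68.1, and *KRT18* and *KRT19* were at 0 in GD15M_LM in that mark.

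T cell markers were placed for 5 of 6. Their H3K4me3 ranked higher in GD15M_CM than in CD15M_CM in 5 of 5 (40.8% of all genes with a peak in either). The medians were 66.8 in GD15M_CM, 57.8 in GD15M_LM and 52.6 in CD15M_CM. In H3K27ac, 3 of 5 ranked higher in GD15M_CM than in CD15M_CM (50.9% of all genes with a peak in either). *CD2* was at 65.4, 0 and 0, *CD8A* at 34.3, 0 and 0 and *LCK* at 63.6, 63.6 and 52.0 in the same order of tissues, while the defining *CD3E* and *CD3D* were at 0 in all 3. Of the 4 striated muscle markers, *MYOD1* and *MYOG* were at 0 for both marks in all lists and *ACTA1* had only an H3K4me3 peak in GD15M_LM, at percentile 17.3. *CKM* had both marks in all 3 tissues, with H3K4me3 at 27.4, 59.1 and 70.7 and H3K27ac at 75.5, 57.2 and 84.3. In such tissue lists, fewer cells of a type and less of a mark per cell cannot be told apart. The part of the cell types' shares in the differences of the 10 genes was not tested.

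Within the genes, more than 3 kb from both ends, H3K27ac peaks were counted per 100 kb. Exons and introns could not be separated, so these are peaks of the gene interior. The 10 genes together have 2234 kb of interior and held 187 peaks in the GD15M_CM list, 154 in that of GD15M_LM and 233 in that of CD15M_CM. This is 8.37, 6.89 and 10.4 peaks per 100 kb, covering 6.13%, 7.49% and 10.8% of the interior. Per 10000 peaks of the whole list there were 23.4, 27.01 and 28.4, so the lower count of GD15M_LM went with a list of 57010 H3K27ac peaks against 79877 in GD15M_CM and 82037 in CD15M_CM.

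**Figure D4:**
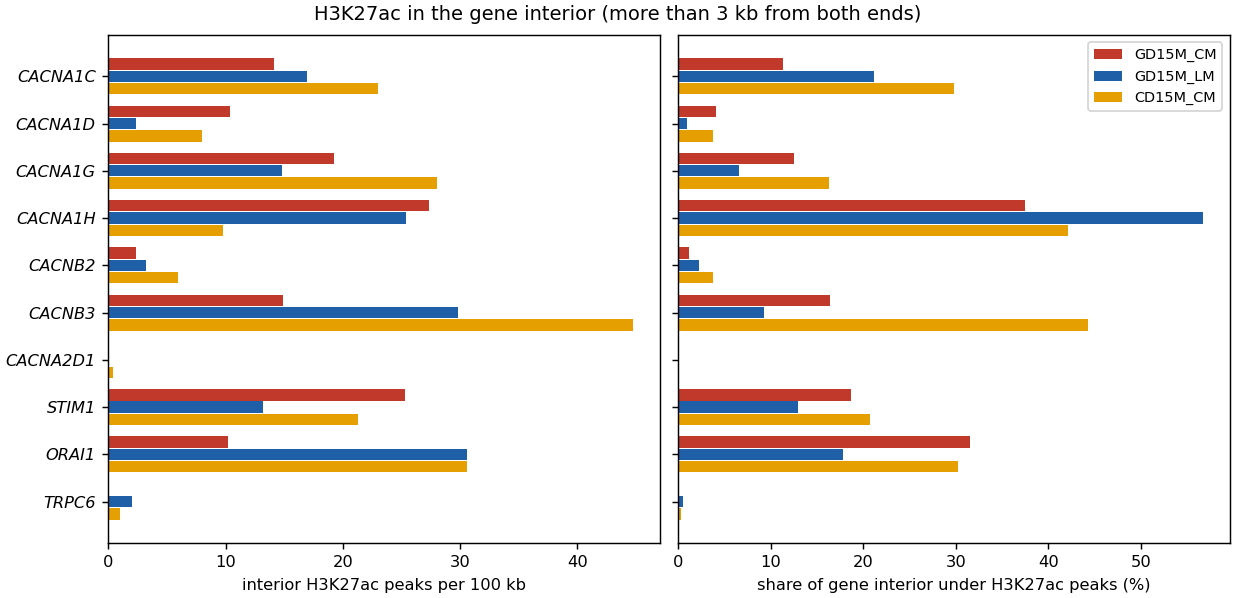
H3K27ac peaks per 100 kb of gene interior (left) and share of the interior under H3K27ac peaks in % (right) for each gene, with 1 bar per pooled list. *CACNB3* and *ORAI1* have interiors of 6.70 and 9.80 kb, so each of their bars on the left rests on 1 to 3 peaks, while *CACNA1D* and *STIM1* show their shortest bars in GD15M_LM.

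*CACNA1C* had the most interior peaks. It held 60 in GD15M_CM, 72 in GD15M_LM and 98 in CD15M_CM, which is 14.1, 16.9 and 23.0 per 100 kb, and they covered 11.4%, 21.1% and 29.8% of the interior. In these lists 90.7%, 96.0% and 95.8% of the 5523 genes of at least 50 kb had a lower density, and the median such gene had 1.02, 0.32 and 1.27 peaks per 100 kb. With lists cut to the same number of peaks, *CACNA1C* had 38, 72 and 63, so the order of GD15M_LM and CD15M_CM depended on the length of the lists while GD15M_CM was lowest both ways. The low GD15M_CM value in the interior thus contrasts with the H3K27ac at the leading region, where GD15M_LM was lowest.

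The interior peaks of *CACNA1C* crowded into its lower part, as the map of L-type genes shows. The highest lay 158 kb from the lower end, from 69175272 to 69177506, with fold enrichments of 8.86 in GD15M_LM and 6.53 in CD15M_CM, at percentiles 98.6 and 96.3, and a percentile of 49.0 in GD15M_CM. The highest in GD15M_CM was another, 21.3 kb inside, at fold enrichment 5.12 and percentile 87.5. A 6528 bp region 62.8 kb inside ranked at 55.7, 93.9 and 56.8, while one 194 kb inside ranked at 81.9, 15.2 and 91.4. Of the 98 interior regions joined over tissues, 30 had a peak in all 3 tissues, 24 in GD15M_LM and CD15M_CM but not GD15M_CM, 33 in CD15M_CM alone, 6 in GD15M_LM alone and 1 in GD15M_CM alone. A tissue counted wherever any of its peaks overlapped the region, also a peak reaching in from the gene end.

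**Figure D5:**
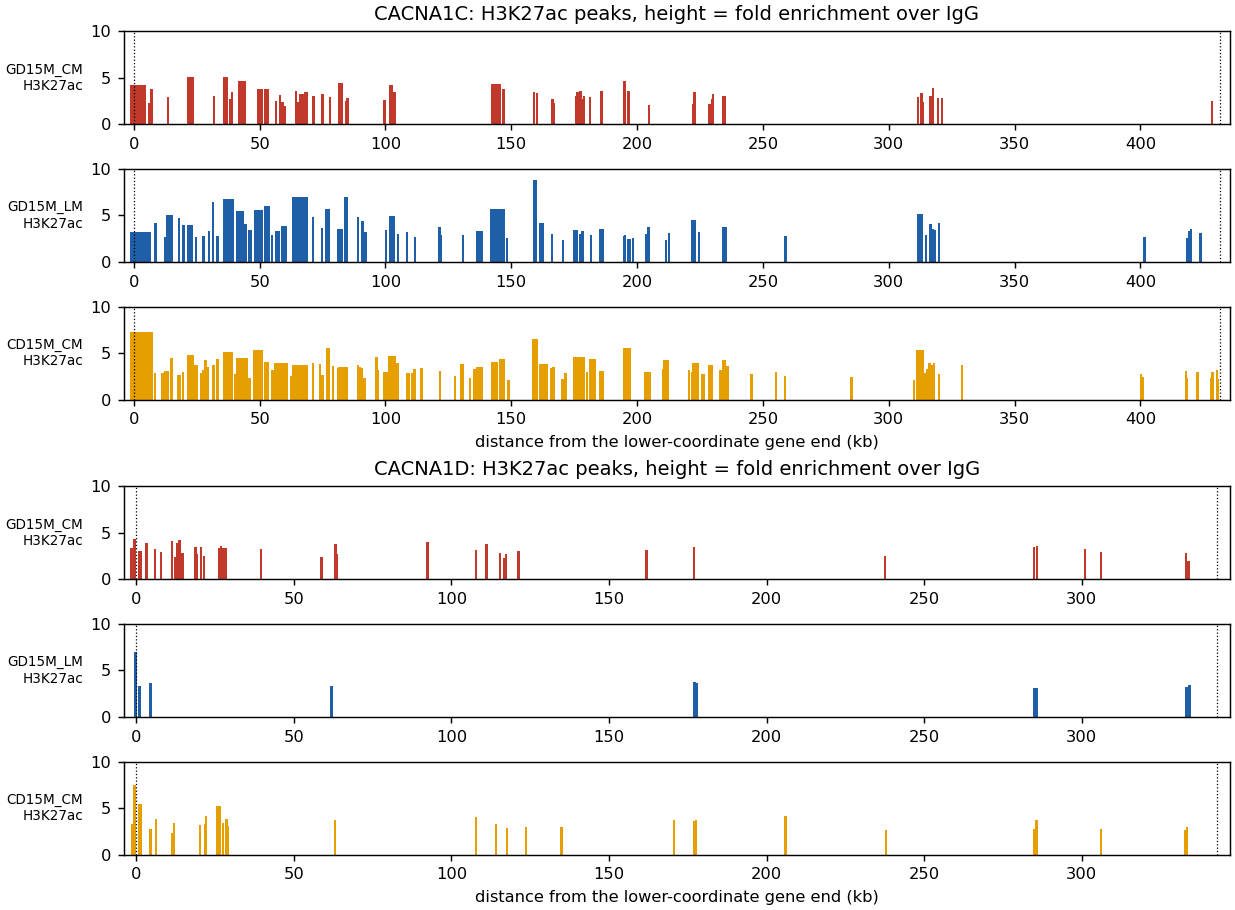
H3K27ac peaks of *CACNA1C* (upper 3 panels) and *CACNA1D* (lower 3 panels) by distance from the lower gene end in kb (x axis), with bar height as fold enrichment over IgG (y axis) and dotted lines at the gene ends. In *CACNA1C* most peaks lie in the lower part of the gene in every tissue, and in *CACNA1D* GD15M_LM has 8 interior peaks against 35 in GD15M_CM and 27 in CD15M_CM.

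*CACNA1D* differed from *CACNA1C* in having the most interior peaks in GD15M_CM, where *CACNA1C* had the fewest. Its interior peaks numbered 35 for GD15M_CM, 8 for GD15M_LM and 27 for CD15M_CM, or 10.4, 2.37 and 8.01 per 100 kb. With lists of equal length the counts were 22, 8 and 16. Of its 43 joined regions, 17 were listed in GD15M_CM alone, 11 in both circular muscles, 8 in CD15M_CM alone, 4 in all 3 and 1 in GD15M_LM alone. The highest peak, 25.3 kb inside from 35593797 to 35595477, ranked at 53.2 in GD15M_CM and 88.5 in CD15M_CM and was absent from the GD15M_LM list. All these peaks were weak, since none of the interior peaks of *CACNA1D* reached both a fold enrichment of 5 and a −log10 p of 10, the strict threshold.

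The T-type genes had many interior peaks for their size in every list, but almost all were weak. Only 1 passed the strict threshold, in *CACNA1H* in GD15M_LM. In *CACNA1G* the interior peaks numbered 13 for GD15M_CM, 10 for GD15M_LM and 19 for CD15M_CM, or 19.2, 14.8 and 28.1 per 100 kb, higher than 94.2%, 94.9% and 97.6% of long genes. Its strongest were 35.7 kb inside in GD15M_CM (fold enrichment 4.67), 4.45 kb inside in GD15M_LM (4.59) and 8.63 kb inside in CD15M_CM (4.49). *CACNA1H* had 14, 13 and 5, but the count misleads there because much of the gene was one domain. A peak beginning about 28 kb inside was 8465 bp long in GD15M_CM, but 16508 bp in GD15M_LM and 18091 bp in CD15M_CM, with fold enrichments of 4.86, 5.10 and 4.04. H3K27ac peaks covered 37.5%, 56.8% and 42.2% of its interior, the highest shares among the genes over 50 kb in this group.

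Among the auxiliary subunits, *CACNB2* had 13, 18 and 33 interior peaks in the order GD15M_CM, GD15M_LM and CD15M_CM, 2.32, 3.22 and 5.90 per 100 kb, and 8, 18 and 21 with lists of equal length. The peak with the highest rank of all interior peaks lay 344 kb inside this gene, from 44665609 to 44666835. Its fold enrichments were 6.15 in GD15M_CM, 7.36 in GD15M_LM and 7.64 in CD15M_CM, at percentiles 94.6, 95.5 and 98.7, beside the H3K4me3 peak listed only for GD15M_LM. A peak 165 kb inside was the highest of GD15M_LM, at fold enrichment 7.74 and percentile 96.6, and ranked at 77.5 in GD15M_CM and 38.9 in CD15M_CM. *CACNB3* had 1, 2 and 3 interior peaks, of which the strongest was 3.78 kb inside in CD15M_CM at fold enrichment 4.04.

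*CACNA2D1* stood out by having almost no H3K27ac inside. Over 479 kb of interior it had 0 peaks in either pregnant layer and 2 in CD15M_CM, both about 250 bp long, with fold enrichments of 3.02 at 364 kb and 2.84 at 370 kb. *TRPC6*, with 100 kb of interior, had 0, 2 and 1, all near the upper end, and the strongest were at fold enrichment 4.44 in GD15M_LM and 4.93 in CD15M_CM. Both genes nonetheless had both marks at their leading region in all 3 tissues.

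*STIM1* was the other dense gene, with 50 interior peaks for GD15M_CM, 26 for GD15M_LM and 42 for CD15M_CM, or 25.3, 13.2 and 21.3 per 100 kb. With lists of equal length these were 36, 26 and 28. Covered shares differed less, at 18.7%, 13.0% and 20.8%. Few passed the strict threshold, 3 in GD15M_CM, 4 in GD15M_LM and 7 in CD15M_CM, which turned the order of both pregnant layers. The strongest peaks were at 111 kb in GD15M_CM (fold enrichment 5.79), 59.1 kb in GD15M_LM (7.20) and 124 kb in CD15M_CM (6.38). *ORAI1* had 1, 3 and 3 interior peaks, the strongest of them 5.41 kb inside in GD15M_LM at fold enrichment 5.63.

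Of the 7 members of at least 50 kb with an interior peak in either pregnant layer, density was higher in GD15M_LM than in GD15M_CM in 3 (*CACNA1C*, *CACNB2* and *TRPC6*), where 25.2% of such genes were, and lower in 4 (61.4%). With lists of equal length *CACNA1G* (8 against 10 peaks) and *CACNA1H* (9 against 13) turned and were denser in GD15M_LM, which left *CACNA1D* and *STIM1*. *CACNA1D* and *STIM1* had at least 1.5 times the density in GD15M_CM (52.1% of such genes). Between the circular muscles, 5 of 8 were denser in CD15M_CM than in GD15M_CM (48.2%) and 3 of 8 less dense (36.0%). The short genes *CACNB3* and *ORAI1* also had more interior peaks in GD15M_LM than in GD15M_CM.

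Joined over tissues, the interiors held 270 H3K27ac regions. A tissue counted wherever any of its peaks overlapped a region, also a peak reaching in from a gene end. Of these, 76 (28.1%) had a peak in all 3 tissues, beside 25.8% of the 52657 such regions of all genes. Regions of GD15M_LM and CD15M_CM without GD15M_CM made up 14.1% (8.39% over all genes), those of both circular muscles 11.11% (13.5%), and those of both pregnant layers without CD15M_CM 0 of 270 (1.68%). Regions listed in 1 tissue alone numbered 34 for GD15M_CM, or 12.6% (22.8% over all genes), 18 for GD15M_LM, or 6.67% (5.50%), and 74 for CD15M_CM, or 27.4% (22.3%), 126 in all. None of these 126 reached percentile 90, and their median highest percentile was 31.9, against 79.7 for the 76 regions shared by all 3. The shared regions take the highest of 3 lists and the others the value of 1 list. The shared value is therefore raised by its definition, and the medians cannot be compared directly. Peaks at percentile 90 or above numbered 3 in GD15M_CM, 9 in GD15M_LM and 10 in CD15M_CM, and all lay in *CACNA1C*, *CACNB2* and *STIM1*. They were 1.60%, 5.84% and 4.29% of the interior peaks, where by definition about 10% of each whole list ranks so high.

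The other genes of calcium entry gave a wider range. Of 36 listed, 33 were placed. An H3K4me3 peak within 3 kb of an end was found for 20 in GD15M_CM (70.6% of all genes), 23 in GD15M_LM (71.5%) and 22 in CD15M_CM (72.3%). Here 12 ranked higher in GD15M_LM than in GD15M_CM and 11 lower, while 9 ranked higher in GD15M_CM than in CD15M_CM and 13 lower. Of all genes with a peak in either tissue, 47.9% and 40.8% ranked higher in these comparisons. In H3K27ac, 9 ranked higher in GD15M_LM than in GD15M_CM and 16 lower (43.6% of all such genes higher). In that mark 12 ranked higher in GD15M_CM than in CD15M_CM and 11 lower (50.9% higher). *CACNA1S*, the L-type pore of skeletal muscle, had neither mark at its ends in any list.

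The widest H3K4me3 ranges were those of *TRPC5* (percentiles 0, 57.3 and 47.5 in GD15M_CM, GD15M_LM and CD15M_CM), *CACNA1E* (0, 54.3 and 0) and *TRPV4* (53.3, 1.58 and 53.4). In H3K27ac they were those of *CACNA2D4* (88.7, 2.06 and 69.8), *TRPC4* (23.3, 6.01 and 82.2) and *CACNA2D3* (11.0, 63.1 and 81.2). *TRPC5* and *CACNA1E*, a neuronal R-type pore, thus had an H3K4me3 peak listed near a gene end in GD15M_LM but not in GD15M_CM. In CD15M_CM only *TRPC5* had one. *TRPV4*, a channel also found in epithelia, had only a low-ranked H3K4me3 peak in GD15M_LM.

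The pattern of *CACNA1C* over its 6 percentiles at the gene ends, 3 tissues and 2 marks, had no near match. The closest protein-coding genes by Euclidean distance were *PAFAH2* (21.5 points), *SETD3* (21.6 points) and *ABCC5* (23.6 points), and 0 genes lay within 20 points. Their H3K27ac percentiles in GD15M_LM, among the values they were chosen on, were 35.3, 24.8 and 30.2.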

How the data were processed

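The authors mapped the CUT&Tag reads to Sus scrofa 11.1 with BWA 0.7.17-r1188, filtered with SAMtools 1.9 and Picard 2.8.3, pooled both gilts and called peaks against IgG with MACS2 2.2.6. The 6 deposited lists give each peak's position, length in bp, fold enrichment (a ratio over IgG, with the scaling not stated) and −log10 p and q of the authors' MACS2 run. Some column names were unreadable. The −log10 p column was identified by identity with the study's own peak table, and the −log10 q column was not used. Read depth is not in the lists, so no interval was computed.

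Python 3.11.15, pandas 2.3.3 and NumPy 2.4.6 were used, with Matplotlib 3.10.9. Gene positions came from RefSeq (Sscrofa11.1), without strand, exons or sequence, so 3 kb around both gene ends stood in for the gene start, with an overlap of at least 1 bp. Leading regions were added after seeing the data. Tested on simulated data, the counting of overlaps, interior peaks and joined peaks differed from a direct count in 0 of 602 checks.

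The members and lists were chosen with earlier results of these data known. Named were all 10 members, their strongest interior peaks, H3K4me3 peaks inside the genes, the 3 other calcium entry genes of widest range per mark and the 3 genes most like *CACNA1C*. Alternatives were strict peaks, equal list lengths, peaks under 1 kb apart joined, a 1 kb window, ranking by −log10 p, at least 50% of a peak inside the window and the whole gene with its flanks. No sequence motif was searched.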

Additional observations from a re-analysis of the deposited data

How the results depend on the processing

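No paired analysis was possible because both gilts were pooled before peak calling, and no replicate could be left out for the same reason. The window of either gene end without strand is the one reported, so it gives no separate value. With strict peaks, H3K27ac at the gene ends was found for 3 of 10 genes in GD15M_CM and 5 in CD15M_CM (9 and 9 as reported), 1 gene ranked higher in GD15M_CM than in CD15M_CM in that mark (3 as reported), interior H3K27ac peaks numbered 7, 21 and 15 in GD15M_CM, GD15M_LM and CD15M_CM (187, 154 and 233 as reported), and 0 genes were denser in GD15M_CM than in CD15M_CM (3 as reported). With equal list lengths the interior peaks numbered 122 in GD15M_CM and 148 in CD15M_CM, and with neighbouring peaks joined 101, 97 and 128, because fewer peaks are counted. Ranked by −log10 p, 3 genes had higher H3K4me3 at the gene ends in GD15M_CM than in CD15M_CM (5 as reported). The cause of this change was not tested. By fold enrichment, 5 genes had higher H3K4me3 in GD15M_LM than in GD15M_CM at the leading region and 3 at the gene ends, which leave out *CACNA1G* and *CACNB2*. The difference in interior density between GD15M_LM and GD15M_CM turned for *STIM1* with strict peaks (0.51 per 100 kb) for *ORAI1* over the whole gene (-4.59), for *CACNA1G* with equal list lengths (2.95) and for *CACNA1H* with equal list lengths (7.81) and strict peaks (1.95). The other 75 counts over the group moved by at most 1.5 times. Of the values of single genes, 84 moved by more than 10 points or 1.5 times (with strict peaks, 25 percentile differences and 17 densities), and 174 by less. Depth limits what the lists can show: a gene at 0 had no peak called, which is not absence of the mark.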
